A study of Mus musculus with 2 samples.

Results

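The genes described here are 10 regulators and transcripts of the naive or quiescent T cell state: Bach2, Bach1, Satb1, Btg1, Trib2, Rapgef4, Dapl1, Igfbp4, Actn1 and Pdlim4. They were chosen by name, as every gene probe of the array design that carries 1 of these symbols, which gave 13 probes for 10 of the 30069 gene names on the array. Regulatory T (Treg) cells, the CD4 T cells that restrain immune responses, were sorted from mice 5 weeks old. 1 library came from cells labelled Nr4a-deficient, from mice that the protocol calls Nr4a-TKO, and 1 from wild-type cells. Nr4a genes encode nuclear receptors that T cell receptor signals induce. The sources used here do not give the sort markers, the tissue, the strain, how the Nr4a genes were deleted, or how many animals each library came from.

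A T cell that has not met its antigen stays small, does not divide and recirculates, and this quiescence is an active state kept by transcriptional repressors, by turnover of messenger RNA and by muted signalling. BACH2 and SATB1 act on chromatin to hold effector genes back or to set the T cell programme, BTG1 recruits a deadenylase to messenger RNA, and transcripts such as Dapl1 and Igfbp4 serve as marks of the naive state in mouse T cells. Resting Treg cells share much of this programme and lose it as they become effector Treg cells.

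Total RNA, 600 ng per library, was amplified and labelled with the dye Cy3, and each library filled 1 Agilent array read in a single colour. There was no replicate, so no difference was tested and no p-value is given. All values describe these 2 libraries, whose number limits the precision. A level is the processed signal of a probe in intensity units. A difference is on the log2 scale, the Nr4a-deficient-labelled library minus wild-type, once each signal had been divided by the 75th percentile of gene probes on its own array. That percentile was 1762 intensity units on the Nr4a-deficient-labelled array and 2047 on the wild-type one. A gene counted as higher or lower at a difference of at least 2-fold. Each member probe was printed in 1 spot, so spot noise was taken from 399 other probes printed several times on each array, as the SD of a difference between single spots at similar brightness. This SD ranged from 0.048 to 0.19 for the detected member probes and covers printing and hybridisation only, not animals, cell sorts or RNA preparation. The scanner software gives its own error for a spot, which was from 10% to 11.7% of the signal at these probes.

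The members' probes lie in different parts of their transcripts. The probes of the members with the highest differences, those of genes with 2 probes, and those that reach a polyadenylation signal are given here as 30 of their 60 bases, to show which stretch of each transcript was read. The part of probe position in the differences was not tested. They run 5′ to 3′ on the messenger RNA strand, with mm9 coordinates from the array design. Capitals mark AATAAA, the core signal for cleavage and polyadenylation. A search for these letters on the messenger RNA strand of each probe found them in 3 of the 13 member probes, against 12.6% of 39429 probes on the array.
Dapl1, chr2:59342854-59342883, plus strand: ctacattattcagcaacctcgaaaatgtta
Igfbp4, chr11:98913364-98913393, plus strand: gagaaagaaagtggtgaacattgaacgccc
Satb1, chr17:51879137-51879166, minus strand: caccttgtgttcactcagacaaaccttcat
Bach2 bright probe, chr4:32673039-32673068, plus strand: agacgccatttctgttgatgaAATAAAggc
Bach2 dim probe, chr4:32588812-32588841, plus strand: agatgacttggtggtcagcttgcctgagga
Btg1 bright probe, chr10:96082101-96082130, plus strand: gtgaactttgttagtcatcttttatttggt
Btg1 dim probe, chr10:96085388-96085417, plus strand: acttcattgcttaggttgtcaaacaggaat
Trib2 bright probe, chr12:15799009-15799038, minus strand: gaactcttttggcataaatatttgtgttcc
Trib2 dim probe, chr12:15822772-15822801, minus strand: ttctttttgtttggtttctaacgcgtggag
Bach1, chr16:87733550-87733579, plus strand: gactgacggttaAATAAAgttcctaacatg
Pdlim4, chr11:53868439-53868468, minus strand: cctggcctttctAATAAAgtccttctgctt
The bright probe of Bach2 ends 3 bases after AATAAA, and the probes of Bach1 and Pdlim4 end 24 and 17 bases after it. The probes of Actn1 and Rapgef4 are not shown. Their 60 bases span 437 and 10207 bases of mm9, so each crosses at least 1 splice junction.

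Of the 10 genes, 9 were well above background on both arrays, and Rapgef4 was on neither. Dapl1 and Igfbp4 were at least 2-fold higher in the Nr4a-deficient-labelled library, and none of the 9 was at least 2-fold lower. Among the 16298 genes detected on both arrays, the share past 2-fold was 2.64% for higher, 3.06% for lower and 5.71% for either direction. The remaining 7 members lay within 2-fold, at differences from -0.46 for Bach2 to 0.79 for Satb1. The median over the 9 members was 0.039, beside -0.014 over all those genes.

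A choice of scale bears on every one of these differences. After scaling to the 75th percentile, the 8 spike-in RNAs detected on both arrays had a difference of 0.37 ± 0.058 (SD, n = 8 RNAs). On the spike-in scale, every measured difference, of members and other genes alike, is therefore 0.37 lower, and the median over the 9 members is -0.33. Relative to all genes the members keep their places, but Igfbp4 is then within 2-fold and only Dapl1, Igfbp4 and Satb1 stay above 0. Over all 18540 genes above background on at least 1 array, 48.8% of the genes past 2-fold were higher with the 75th percentile and 27.1% with the spike-ins.

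**Figure D1:**
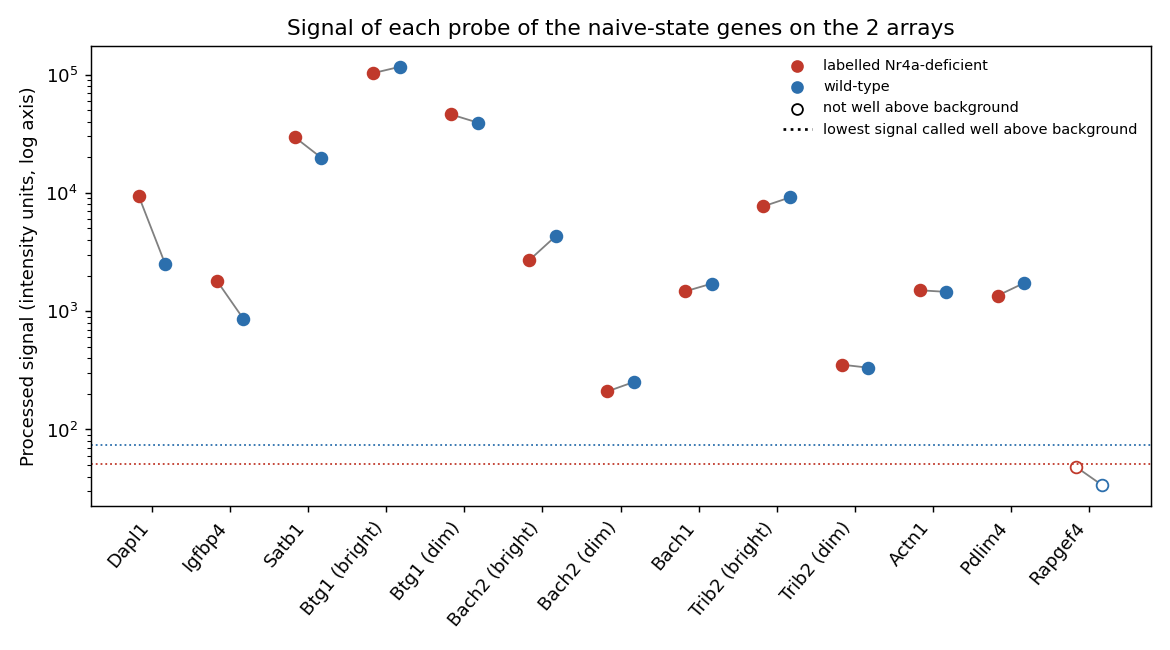
Processed signal (intensity units, log axis) of each of the 13 member probes in the Nr4a-deficient-labelled library (red, left of each pair) and in the wild-type library (blue, right), before scaling between arrays. Dotted lines are the lowest signals called well above background, 51.1 and 73.8 intensity units, and both Rapgef4 points (open) lie below them, whereas Dapl1 and Igfbp4 have the steepest lines.

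Probes of the targeted genes were examined as a check of the labels. The Nr4a1 probe read 80407 intensity units in the Nr4a-deficient-labelled library and 51441 in the wild-type library, a difference of 0.86. The brighter Nr4a2 probe lay at 0.98, and the Nr4a3 probe was well above background on neither array. Since the deleted part of each gene is not given, a probe may lie outside it, in which case it is no check. The library is called by its label throughout, and every direction depends on the label being right.

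The identity of the cells was examined with marker lists, whose summed signal is given in multiples of each array's 75th percentile. T cell markers were alike, with 10 of 10 detected, none past 2-fold and sums of 452 in the Nr4a-deficient-labelled library and 447 in wild-type. The 6 Treg markers were all detected and summed to 75.8 in the Nr4a-deficient-labelled library and 120.4 in wild-type, with Il2ra 2.42-fold lower, while the Foxp3 probe was dim on both arrays, at 74.5 intensity units in the Nr4a-deficient-labelled library and 85.4 in wild-type. Of the B cell markers 13 of 15 were detected and 4 were higher, with sums of 26.1 in the Nr4a-deficient-labelled library and 12.7 in wild-type. Of 12 plasmacytoid dendritic cell markers, all detected, 9 were higher, with sums of 143 in the Nr4a-deficient-labelled library and 105 in wild-type. The plasmacytoid sum is led by 1 Siglech probe that read 136839 intensity units in the Nr4a-deficient-labelled library and 147869 in wild-type, a difference of 0.10. Another Siglech probe, detected on both arrays, lay at 6.63. The remaining Siglech probe was not well above background in wild-type, so its 4.75 is a measured value and not a bound. Over all detected genes, 4.7% were higher and 4.94% lower, bounds included. Dendritic cell and macrophage markers (13 of 14 detected) had 5 higher and 4 lower, with sums of 52.9 in the Nr4a-deficient-labelled library and 67.7 in wild-type, and NK and CD8 T cell markers (11 of 12) had 3 higher and 1 lower, with 18.2 in the Nr4a-deficient-labelled library and 13.0 in wild-type. Red cell and platelet markers (7 of 11) had 5 lower, with sums of 34.8 in the Nr4a-deficient-labelled library and 110.03 in wild-type. Thymocyte markers (5 of 8) had 2 lower, with 2.17 in the Nr4a-deficient-labelled library and 3.42 in wild-type, and stromal markers (7 of 8) had 2 higher, with 1.63 in the Nr4a-deficient-labelled library and 1.05 in wild-type. Pax5, Blk, Xcr1, Ncr1, Rag2, Ptcra, Arpp21, Pf4, Ppbp, Itga2b, Gp9 and Pdgfra were not well above background on either array. In bulk RNA, fewer cells of a type and less RNA per cell cannot be told apart, and the part of these other cells in the members' differences was not tested.

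Dapl1, which encodes a small protein related to death-associated protein and is a transcript of naive T cells in mice, had the highest difference of the members. Its signal was 9407 intensity units ± 941 in the Nr4a-deficient-labelled library and 2491 ± 250 in wild-type, the error being the one the scanner software gives for the spot. After scaling, Dapl1 was 4.39-fold higher, a difference of 2.13 with a spot noise SD of 0.068. Of the 16298 genes above background on both arrays, 103 had a higher difference. Under the 10 alternative processings its difference ran from 1.76 to 2.17 and stayed past 2-fold in all of them. Dapl1 has 1 probe, above background on both arrays, so the mean of probes, the filters and measured values could not change it. The authors' value table holds nearly the same signals and gave the same 2.13.

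Igfbp4, a secreted protein that binds insulin-like growth factors and a second transcript of naive mouse T cells, was also higher. It read 1811 intensity units in the Nr4a-deficient-labelled library and 862 in wild-type. The scaled difference was 1.29, or 2.44-fold, with a spot noise SD of 0.088, and 270 genes had a higher one. On the spike-in scale the difference was 0.92, or 1.89-fold, which is under the 2-fold line. Stromal cells, which are also known to make Igfbp4, had markers at low signal on both arrays, with sums of 1.63 in the Nr4a-deficient-labelled library and 1.05 in wild-type. Cdh5, an endothelial cadherin of that list, was at least 8.10-fold higher in the Nr4a-deficient-labelled library, and Cdh1 at least 4.70-fold higher. The other detected genes of the list were within 2-fold. Pecam1 lay at 0.24, Epcam at 0.33 and the collagen genes Col1a1 and Col1a2 at 0.27 and -0.53, and Col3a1 had a bound of 0.32. The part of stromal cells in the Igfbp4 signal was not tested.

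**Figure D2:**
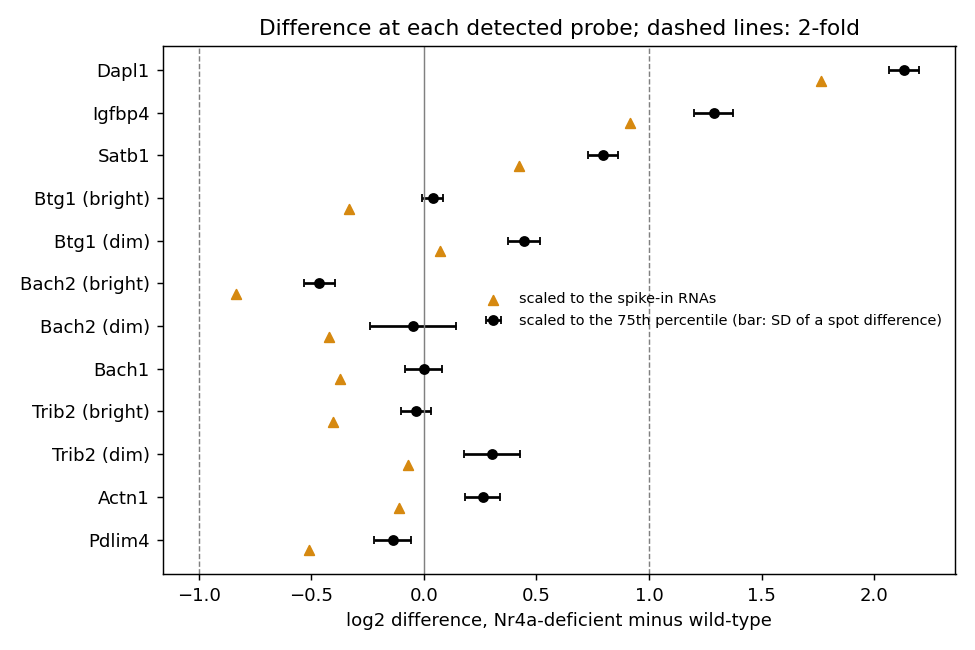
Log2 difference (Nr4a-deficient-labelled library minus wild-type) at each of the 12 member probes above background on both arrays. Black points are scaled to the 75th percentile with bars of 1 SD of a single-spot difference, orange triangles are scaled to the spike-in RNAs, and dashed lines mark 2-fold. Dapl1 stays past 2-fold on both scales and Igfbp4 on the 75th percentile only.

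Satb1, a chromatin organizer that T cells need for their development and that FOXP3 is known to hold down in Treg cells, came next. Its signal was 29501 intensity units in the Nr4a-deficient-labelled library and 19759 in wild-type, a scaled difference of 0.79 or 1.73-fold, below the 2-fold line. The spot noise SD at this brightness was 0.067, and 605 genes had a higher difference. At a line of 1.5-fold Satb1 joins Dapl1 and Igfbp4, which makes 3 of 9 members higher beside 5.8% of all genes, and no member lower beside 6.34%. On the spike-in scale the Satb1 difference was 0.42. Thymocytes are known to have much Satb1, and their markers had the lower sum in the Nr4a-deficient-labelled library (2.17, against 3.42 in wild-type), with members in both directions. The recombinase gene Rag1 was at least 14.0-fold lower and Sox4 3.37-fold lower, Dntt lay at -0.80, Cd8a at 0.51 and Themis at 0.69, and the part of thymocytes in the Satb1 signal was not tested.

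SATB1 is known to act at enhancers of Treg signature genes, and 6 such genes were followed (Foxp3, Il2ra, Ctla4, Ikzf2, Ikzf4 and Tnfrsf18). All were detected on both arrays. None was at least 2-fold higher and 2 were lower, beside 2.64% higher and 3.06% lower of all genes detected on both arrays. Ikzf4, which encodes Eos, a FOXP3 partner, read 4283 intensity units in the Nr4a-deficient-labelled library and 31789 in wild-type, a difference of -2.68 at its brightest probe. Its 3 probes ran from -2.76 to -1.30. The median of the 6 genes was -0.52, beside -0.014 over all genes detected on both arrays.

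The repressor BACH2 restrains effector differentiation of T cells and is known to keep Treg cells stable. Its brighter probe read 2690 intensity units in the Nr4a-deficient-labelled library and 4310 in wild-type. The scaled difference was -0.46, or 1.38-fold lower, which is 6.58 times the spot noise SD of 0.070 and 8.40% of genes had a lower difference. The dimmer Bach2 probe lies 84227 bases upstream on mm9 and read 210 intensity units in the Nr4a-deficient-labelled library and 252 in wild-type. Its difference was -0.049, less than its spot noise SD of 0.19. The 2 probes thus differed by 0.41, against a spot noise SD of 0.20 for that gap. With the 75th percentile as the scale, only the probe at the far end of the transcript lay beyond its own spot noise SD. On the spike-in scale the bright Bach2 probe lay at -0.83 and the dim one at -0.42, both beyond their spot noise SD. Bach2 is also a gene of B cells, whose markers had the higher sum in the Nr4a-deficient-labelled library (26.1, against 12.7 in wild-type). Among those markers, Spib also stands in the plasmacytoid dendritic cell list. The part of B cells in the Bach2 signal was not tested.

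Of 8 effector genes known to be held down by BACH2 in T cells, 3 were at least 2-fold higher and 1 lower, beside the 4.7% and 4.94% of all detected genes. Il4, a cytokine of T helper 2 cells, was 10.3-fold higher, Il13 at least 43.8-fold higher and Klrg1, an inhibitory receptor of late effector cells, 2.75-fold higher. The IL-33 receptor gene Il1rl1 lay just under the line at 0.97 by its brightest probe and at 1.16 by both other probes. Prdm1, which encodes the effector repressor BLIMP1, read 3096 intensity units in the Nr4a-deficient-labelled library and 3251 in wild-type, a difference of 0.15. Gata3 lay at 0.38 and Il5 had a bound of 0.16. Ccr4, a skin-homing chemokine receptor, was 2.26-fold lower. The median of the 8 genes was 0.68, or 1.21 with measured values in place of bounds. The list was chosen with earlier results of these data known, so its directions are not independent evidence on Bach2.

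BACH1, the haem-regulated paralog of BACH2, was level. Bach1 read 1472 intensity units in the Nr4a-deficient-labelled library and 1711 in wild-type, which after scaling is a difference of -0.0013 with a spot noise SD of 0.082. On the spike-in scale it was -0.37, close to the shift of all genes. The order of Bach2 below Bach1 does not depend on the scale, but it rests on the bright Bach2 probe. Both proteins pair with small Maf proteins. Among 8 small Maf and CNC factors with their sensor Keap1, none passed 2-fold, beside 4.7% of all detected genes higher and 4.94% lower. Mafg lay at 0.71, with 0.55 to 0.72 over its 4 probes. Mafk was at 0.18, Maff at -0.038, Nfe2l2, the antioxidant activator NRF2, at 0.27, Nfe2l1 at 0.041, Nfe2 at -0.20 and Keap1 at 0.047. Nfe2l3, detected in that library alone, had a bound of 0.81.

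Of 10 haem, iron and antioxidant genes known to be held down by BACH1, 7 were detected, of which none was higher and 2 were lower, beside 2.64% and 3.06% of all genes, with a median of -0.24. Hmox1, which degrades haem, was 3.89-fold lower and Slc40a1, the iron exporter ferroportin, 4.39-fold lower. Ftl1, the ferritin light chain, lay at -0.99 by its brightest probe and at -1.70 by its other probe, whereas Fth1, the ferritin heavy chain, lay at 0.19. Genes of glutathione and thioredoxin metabolism were closer to 0, with Gclc at -0.24, Gclm at -0.19 and Txnrd1 at 0.14. Nqo1, Slc7a11 and Me1 were not well above background on either array. Hmox1, Slc40a1 and Ftl1 are also genes of macrophages, and macrophage complement genes were lower in the same library, with C1qa 2.92-fold, C1qb 2.74-fold and C1qc 3.03-fold lower, although 5 dendritic cell and macrophage markers of the same list were higher. Red cell and platelet markers summed to 34.8 in the Nr4a-deficient-labelled library and 110.03 in wild-type, and the part of either cell type was not tested.

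Btg1, the anti-proliferative factor that with Btg2 is known to keep T cells quiescent by shortening poly(A) tails, was read by a pair of probes. The brighter one read 102704 intensity units in the Nr4a-deficient-labelled library and 116122 in wild-type, a scaled difference of 0.039. The dimmer probe, 3287 bases further along the plus strand, read 45998 intensity units in the Nr4a-deficient-labelled library and 39260 in wild-type, a scaled difference of 0.44. The gap of 0.41 between the probes of 1 gene was larger than in 84.7% of the 3025 genes with 2 detected probes, whose median gap was 0.12. Spot noise near its brightness rests on 1 repeated probe.

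The partners and relatives of BTG1 differed little between the libraries. Btg2 read 8280 intensity units in the Nr4a-deficient-labelled library and 8628 in wild-type, a difference of 0.16. Btg3 lay at 0.022, Tob1 at 0.062 and Tob2 at 0.11, and Btg4 was well above background on neither array. All 11 subunits of the CCR4-NOT deadenylase were detected and none passed 2-fold, beside 5.71% of all genes detected on both arrays. The subunits ran from -0.12 for Cnot2 to 0.28 for Cnot6l, with Cnot7 at 0.14, Cnot8 at -0.036 and a median of -0.017.

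Trib2 encodes a pseudokinase that brings the ubiquitin ligase COP1 to C/EBP factors. Its brighter probe read 7695 intensity units in the Nr4a-deficient-labelled library and 9153 in wild-type, a difference of -0.034 that is smaller than its spot noise SD of 0.068. Its dimmer probe, 23763 bases upstream of the brighter one on the minus strand, read 353 intensity units in the Nr4a-deficient-labelled library and 333 in wild-type, a difference of 0.30 with a noise SD of 0.13. The mean over both probes was 0.13, so the sign of Trib2 rests on the choice of probe. Trib1 ran from -0.026 at its brightest of 3 probes to 0.66, and Trib3 lay at -0.63. Among the partners, Cop1 lay at 0.096 and Cebpb at 0.27, and Cebpa, a myeloid factor, read 659 intensity units in the Nr4a-deficient-labelled library and 346 in wild-type, 2.21-fold higher. Dendritic cell and macrophage markers went both ways in the same library, with 5 of 13 higher, among them Itgax 6.27-fold, and 4 lower, among them Adgre1 2.45-fold, at a median of -0.27.

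Rapgef4, which encodes EPAC2, an exchange factor that switches on Rap1 when cyclic AMP binds it, read 48.4 intensity units in the Nr4a-deficient-labelled library and 33.8 in wild-type. Neither value was well above background, so no fold is given. Its relatives Rapgef1 (0.019), Rapgef2 (0.35), Rapgef3 (-0.37), Rapgef5 (0.43) and Rapgef6 (0.047) were detected and within 2-fold. Of 8 genes of the Rap1 axis, none passed 2-fold, beside 5.71% of all genes detected on both arrays. The Rap1 GTPase genes Rap1b and Rap1a lay at 0.24 and 0.13, while Rap1gap, which switches Rap1 off, lay at -0.36.

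Actn1, which encodes the actin crosslinker alpha-actinin-1, read 1502 intensity units in the Nr4a-deficient-labelled library and 1456 in wild-type. The scaled difference was 0.26, with a spot noise SD of 0.077, and it turned to -0.11 on the spike-in scale. Pdlim4, whose PDZ and LIM domain protein binds alpha-actinin, read 1354 intensity units in the Nr4a-deficient-labelled library and 1732 in wild-type, a difference of -0.14 or 1.65 times its spot noise SD. The nonmuscle paralog Actn4 lay at 0.10, and Actn2, above background only in wild-type, had a bound of -0.98. Actn3 and Pdlim3 were not well above background on either array. The other Pdlim genes and Ldb3 lay between -0.14 (Pdlim2) and 0.39 (Pdlim1) at their brightest probes. Pdlim7 ran from -0.031 to 0.38 over its 3 probes, and Pdlim5, at -0.067 by its brightest probe, lay at 0.47 and 0.56 by its others. All 6 actin and adhesion partners lay above 0 and within 2-fold. Of all genes detected on both arrays, 47.8% lay above 0 and 5.71% passed 2-fold. These 6 partners ran from 0.12 for Actb to 0.68 for Pxn, with a median of 0.22 (-0.15 on the spike-in scale).

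Around Igfbp4, the rest of the IGF system held dim, level and lower genes. Igfbp1 was above background only in wild-type, at least 5.06-fold lower in the Nr4a-deficient-labelled library, and Igfbp6 had a bound of -0.46. Igfbp2, Igfbp3, Igfbp5 and Igfbp7 were not well above background on either array. Of the 7 detected genes of the IGF axis, none was higher and 1 was lower, beside 2.64% and 3.06% of all genes. This was Igf2r, the mannose 6-phosphate and IGF2 receptor, which read 4430 intensity units in the Nr4a-deficient-labelled library and 16450 in wild-type, or 3.20-fold lower. Igf1r lay at 0.48, Insr at 0.51, Irs2 at 0.036 and Pappa, which encodes a protease that cleaves IGFBP4, at 0.47. Igf1 counted as level by its brightest probe (-0.057), but its 3 other probes detected on both arrays lay at -1.49, -1.74 and -1.86, all more than 2-fold lower.

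**Figure D3:**
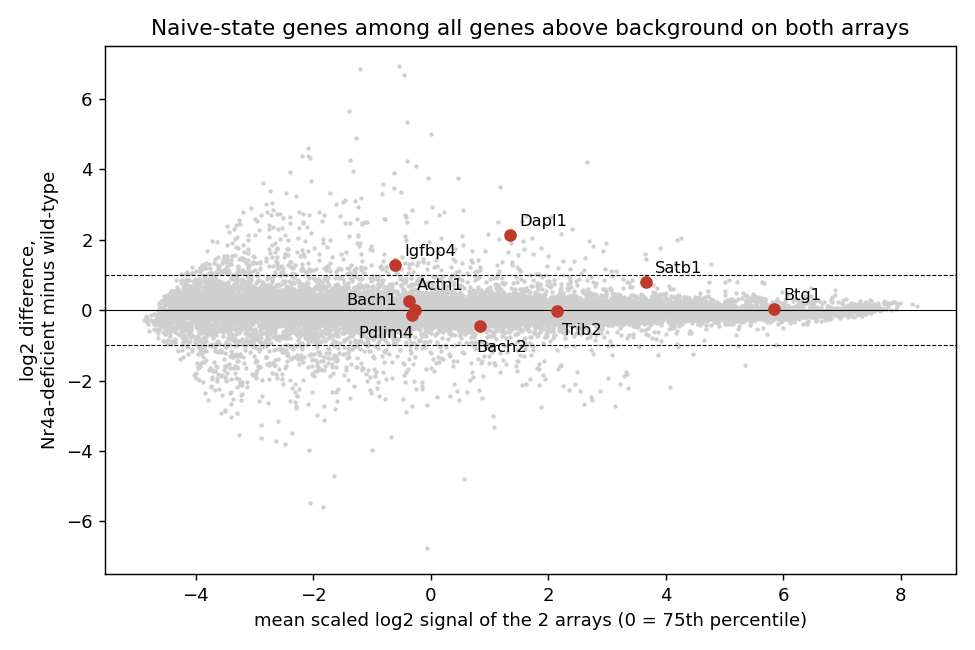
Log2 difference (Nr4a-deficient-labelled library minus wild-type) against the mean scaled log2 signal of both arrays, for 16298 genes above background on both arrays (grey) and the 9 detected members at their brightest probe (red). Dashed lines mark 2-fold, and Dapl1 and Igfbp4 are the members above the upper one.

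The differences of Dapl1 and Igfbp4 were set against other genes of the naive T cell state. All 19 were well above background on both arrays. None passed 2-fold in either direction, beside 5.71% of all genes detected on both arrays. The median of the 19 was 0.054, and 12 lay above 0 and 7 below. Art2b, an ADP-ribosyltransferase of T cells, lay at 0.67, and Tcf7, the gene of the T cell factor TCF1, read 13846 intensity units in the Nr4a-deficient-labelled library and 10609 in wild-type, 0.60 at this probe and 0.78 at its other probe. The migration receptor genes Ccr7 (0.23) and S1pr1 (0.26) and the factors Lef1 (0.081), Klf2 (0.054), Klf3 (0.16), Foxp1 (0.076) and Ets1 (0.086) were close to 0. Cd55 lay at 0.36, Txk at 0.0049 and Il6ra at -0.011. Il7r, the receptor for the survival cytokine IL-7, lay at -0.38, Il6st at -0.42, Treml2 at -0.36, Foxo1 at -0.27 and Rasgrp2 at -0.13. Nsg2 was lowest at -0.59, with -0.64 and -0.058 at its other probes. On the spike-in scale only Tcf7 and Art2b stayed above 0.

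Other quiescence factors were as level. Of 15 genes, none passed 2-fold, beside 5.71% of all genes detected on both arrays. The median of the 15 was 0.062 (-0.31 on the spike-in scale). Vsir, the gene of the inhibitory receptor VISTA, lay highest at 0.55 (0.67 at its other probe), followed by Klf4 at 0.47. Runx1 lay at 0.29 and the cell cycle inhibitor Cdkn2c at 0.28, while the inhibitor Cdkn1b, the gene of p27, lay at -0.15. Slfn2 (0.046), Tsc1 (0.033), Tsc2 (-0.096) and Foxo3 (-0.21) were close to 0. Klf2, Foxo1, Foxp1, Btg2, Tob1 and Tob2 also stand in the lists above.

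Effector Treg genes split. All 26 were detected on both arrays. At least 2-fold higher were 4 and lower was 1, beside 2.64% and 3.06% of all genes, and the median was 0.13 (-0.24 on the spike-in scale). The higher ones were Gzmb, the gene of granzyme B (18.3-fold), Il10 (7.16-fold), Areg (5.12-fold) and Klrg1 (2.75-fold), and Ccr8 was 2.62-fold lower. Dapl1 and Igfbp4, transcripts of naive cells, were thus higher in the same library as these 4 effector transcripts. Among the 11 detected markers of NK and CD8 cells, 3 were higher and 1 was lower, beside 4.7% and 4.94% of all detected genes. Klrd1 was at least 13.1-fold higher and Ctsw 2.90-fold lower, and the perforin gene Prf1 lay at 0.046.

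**Figure D4:**
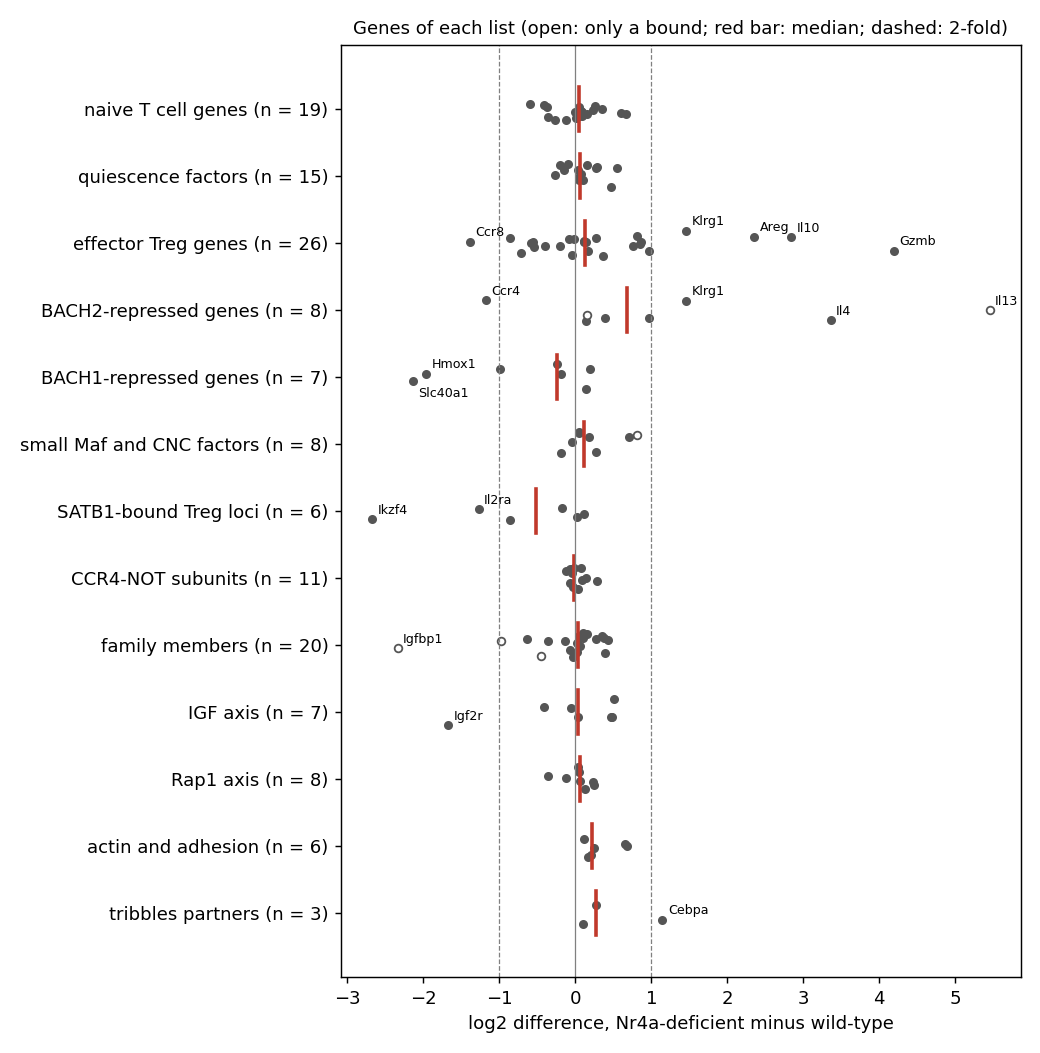
Log2 difference (Nr4a-deficient-labelled library minus wild-type) of each detected gene in 13 lists around the members, with the number of detected genes in brackets. Filled points were above background on both arrays, open points have only a bound, red bars are medians and dashed lines mark 2-fold. The lists of naive T cell genes, quiescence factors, CCR4-NOT subunits, small Maf and CNC factors, the Rap1 axis, and actin and adhesion lie wholly within 2-fold.

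The promoters of the members were searched in RefSeq's sequences of build GRCm38.p6, over the 250 bases before each annotated start, on both strands. All 10 genes matched, with 14 starts. The Nr4a response element AAAGGTCA was in none of the 14 windows, against 1.34% of 32851 windows of all genes, and the AP-1 site TGACTCA, which overlaps the BACH site, was in none, against 4.46%. No match says only that these letters are not in these windows. The letters TATAAA, a search added after the sequences were read, were in 3 of the 14 windows, those of Dapl1, Igfbp4 and Btg1, against 12.4% of all windows on either strand and 7.59% on the gene's strand. In Dapl1 they begin 29 bases before the start, in Igfbp4 28 and in Btg1 26, each on the gene's strand. The promoters of the 2 members past 2-fold are shown with TATAAA in capitals.
Dapl1, GRCm38.p6 chr2:59484403-59484652, plus strand: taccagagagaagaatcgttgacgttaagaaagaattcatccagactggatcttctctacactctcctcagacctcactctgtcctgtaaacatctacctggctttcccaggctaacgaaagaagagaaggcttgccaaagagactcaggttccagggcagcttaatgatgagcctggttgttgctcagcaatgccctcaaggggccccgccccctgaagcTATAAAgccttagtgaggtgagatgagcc
Igfbp4, GRCm38.p6 chr11:99040994-99041243, plus strand: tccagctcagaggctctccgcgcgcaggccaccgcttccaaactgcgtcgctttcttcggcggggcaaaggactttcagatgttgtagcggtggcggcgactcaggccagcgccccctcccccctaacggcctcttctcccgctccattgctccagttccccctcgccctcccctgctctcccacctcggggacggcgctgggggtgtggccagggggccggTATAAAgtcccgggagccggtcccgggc
These 2 windows differ in base composition, since that of Dapl1 has 50% G and C with 4 CpG dinucleotides and that of Igfbp4 has 69.2% with 22, beside medians of 52.4% and 6 over all windows.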

How the data were processed

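Per the labels' protocols, sorted Treg cells were lysed directly and Cy3-labelled cRNA was prepared with a low-input kit, whose amplification can distort rare transcripts. Per the file headers, Agilent Feature Extraction 10.7.3.1 gave the intensity values, with background subtracted inside each array. No step between arrays is recorded, and both arrays were on 1 slide. The authors' deposited value table holds intensity values of the same arrays, on a linear scale and not centred, with column medians of 143.7 and 156.8, and served as an alternative.

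Signals were put on the log2 scale, spots that the scanner software called outliers were dropped (173 on the Nr4a-deficient-labelled array, 209 on the wild-type one), repeated spots were averaged and the 75th percentile was subtracted. None was saturated. Of 39348 probes, 58.7% were well above background on the Nr4a-deficient-labelled array and 55.6% on the wild-type one, meaning over 50% of their spots carried that call. Each gene's value is that of its brightest probe among those above background on at least 1 array. A gene above background on 1 array has a bound against the lowest such signal on the other, or against its own signal there if that is higher. A bound was not allowed to change sign. A name was updated through RefSeq (GRCm38.p6). Both naming routes gave the same 13 member probes. The calls were run on simulated data with known differences well past the 2-fold line and small noise. That run checks the code only, as it holds no spread between animals, cell sorts or RNA preparations. Python 3.11.15, R 4.3.3 and limma 3.58.1 were used.

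The members, the 22 lists and the rule for named genes (all members, the Nr4a genes, up to 2 genes at either end of each list among those past 2-fold, and genes of the family, BACH target, Maf, quiescence and naive T cell lists) were chosen with earlier results of these data known. Marker genes named beside a result, and single list genes outside that rule, were chosen after their values were seen. With 2 arrays, no likeness of pattern between genes was computed.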

Additional observations from a re-analysis of the deposited data

How the results depend on the processing

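Member differences and counts, list medians and counts over all genes were recomputed under 10 alternatives: 4 other scales, normexp background correction together with quantile scaling, the authors' value table, the mean of a gene's probes, 2 other filters on dim probes, and measured values in place of bounds. The count of members at least 2-fold higher was 2 in all of these except with the spike-ins as the scale, where it was 1, and 3 at a 1.5-fold line. No member was at least 2-fold lower in any. The filters and the measured values could not change a member, as all 9 detected ones were above background on both arrays. The authors' value table holds nearly the same signals. The members' median of 0.039 was -0.058 with the median as the scale, -0.33 with the spike-ins, 0.24 with the mean of probes and 0.12 after normexp with quantiles. Signs of Bach1, Btg1, Trib2 and Actn1 changed in at least 1 alternative, and those of Dapl1, Igfbp4, Satb1, Bach2 and Pdlim4 in none. Of 220 list medians, 35 moved by over 0.1, of which 22 did so with the spike-ins. The median as the scale shifts every measured difference by -0.097, just under that line, so no list median counted as moved with it. Over all genes, the 871 higher and 915 lower became 432 and 499 with both arrays above background, 2059 and 1785 without a filter, 1429 and 1064 with measured values, 560 and 1508 with the spike-ins, and 565 and 664 with normexp and quantile scaling together (794 and 1024 with quantile scaling alone). The cause of these changes was not tested, except where it follows from the step itself. The spike-in scale lowers every measured difference by 0.37 and the median scale by 0.097, and filters change the number of genes counted. List counts, marker sums, ranks, probe gaps and single list genes were not recomputed, apart from the spike-in scale for list genes. Leaving out a replicate and a slide block were not run, as each group had 1 array and both shared a slide. No paired analysis was possible because each group had 1 sample. Signal over background limits Rapgef4 and the dim probes of Bach2 and Trib2.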

Other observations

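Among the 3 members with 2 probes, the gaps between probes (0.41 for Bach2, 0.41 for Btg1 and 0.34 for Trib2) were larger than in 85.3%, 84.7% and 80.9% of genes with 2 detected probes. In each of the 3 genes the brighter probe had the lower difference. Over all 3025 such genes, 26.7% had probes of opposite sign, as Trib2 did.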
